A study of Mus musculus with 11 samples.

Results

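Wnt proteins are secreted, lipid-modified ligands. They bind Frizzled receptors together with the coreceptors LRP5 and LRP6, which stops the destruction complex from degrading beta-catenin, so that TCF and LEF factors can switch on target genes such as Axin2. R-spondins raise the response by keeping Frizzleds at the surface, and secreted SFRP proteins lower it by binding Wnts. In skeletal muscle, Wnt signals are known for their part in the quiescence, proliferation and differentiation of muscle stem cells (satellite cells), and Wnt4 is known as a myofibre-derived ligand that helps to keep satellite cells quiescent.

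The genes described here are 10 of the 20640 gene symbols in the deposited expression table, chosen by symbol: the ligand Wnt4, the agonist Rspo3, the receptors Fzd4 and Fzd7, the coreceptors Lrp5 and Lrp6, the transcription factor Tcf7l2, the target and inhibitor Axin2, and the secreted modulators Sfrp1 and Dkk3. Their levels were read in 11 bulk RNA-seq libraries of cells sorted from limb muscle of Pax7-CreERT2;Rosa-YFP mice. In these mice tamoxifen turns on Cre in cells with an active Pax7 promoter, and those cells and their descendants then carry YFP whether or not they still express Pax7. All mice received oral tamoxifen (240 mg/kg on 5 days in a row) at 12 to 14 weeks of age, and the sort removed cells positive for Sca-1, CD31 or CD45.

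Middle-aged mice were 10 to 14 months old by the sample labels and 12 to 14 months in the protocol. Their YFP+ cells gave 3 libraries, whose titles name no VCAM1 gate. Geriatric mice were over 28 months old, and their YFP+ cells were divided by surface VCAM1 into VCAM1-high (3 libraries), VCAM1-low (2 libraries) and VCAM1-negative (3 libraries). These names are those of the sample titles. The design text has high, mid and low or negative gates instead, and how the lower names correspond is not stated. A comparison of a geriatric gate with the middle-aged group therefore changes age, gate and time since labelling together. The 3 comparisons with the middle-aged group also share its libraries. Whether replicates come from different animals is not given by the labels. The tests therefore rest on the spread among these samples alone, which may be technical.

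Levels are in RPKM (a read density per gene length and sequencing depth), so they can be set side by side between genes. Estimated depth was 19.9 to 29.8 Mreads per library (M for mega), and 10395 to 11171 genes reached 1 RPKM. Vcam1 followed the gates, with 188 to 418 RPKM for VCAM1-high, 115 and 177 for VCAM1-low and 48.6 to 122 for VCAM1-negative. Pax7 was at 5.75 to 7.85 RPKM in middle-aged, 3.94 to 5.16 for VCAM1-high, 7.36 and 1.97 for VCAM1-low and 1.71 to 4.0 for VCAM1-negative. All VCAM1-high and VCAM1-negative libraries were thus below every middle-aged one. Transcripts of sorted-out cells were present, most of all in replicate 3 of the middle-aged group, with Pecam1 (CD31) at 20.5 RPKM and Ly6a (Sca-1) at 66.3 RPKM against 0.665 and 1.46, and 2.55 and 4.39, in replicates 1 and 2. Replicate 3 of VCAM1-high held the most Ptprc (CD45), at 3.3 RPKM, and the VCAM1-negative libraries held myofibre transcripts (11 genes summed to 699 RPKM or more, against at most 336 elsewhere). Pdgfra, a marker of fibro-adipogenic progenitors, was at 0.113 to 2.37 RPKM. In bulk RNA fewer cells of a type and less RNA per cell cannot be told apart.

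On GENCODE's GRCm38 annotation, an older build than that of the deposited values, Wnt4 lies at chr4:137277489-137299726 (plus strand), Fzd7 at chr1:59482424-59486955 (plus), Axin2 at chr11:108920349-108950783 (plus) and Sfrp1 at chr8:23411502-23449632 (plus). The start regions of 5 of the 10 genes are in RefSeq's table (build GRCm38.p6), in 6 windows. Shown are those of Wnt4 and Fzd7, whose levels in all 8 geriatric libraries lay on one side of the middle-aged ones, and of Axin2, the usual readout of the pathway. Each is the plus strand, 5′ to 3′, upstream of the RefSeq start, from which distances are counted. For Wnt4 and Fzd7 this start is not the GENCODE start given above, and the unshown part of the Wnt4 window reaches past the GENCODE start. Capitals mark a GC box (GGGCGG on the plus strand, which reads CCGCCC where it lies on the minus strand) or a TCF/LEF core. The core was searched on both strands as CTTTGAA and its variants, which are CTTTGAT as well as CTTTGTA and also CTTTGTT. GC boxes that overlap each other were counted separately, and in the printed windows no GC box overlaps a core.
Wnt4, chr4:137277385-137277484: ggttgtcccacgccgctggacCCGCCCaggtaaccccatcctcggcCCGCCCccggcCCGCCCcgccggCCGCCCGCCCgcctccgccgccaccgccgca
Fzd7, chr1:59481897-59482146: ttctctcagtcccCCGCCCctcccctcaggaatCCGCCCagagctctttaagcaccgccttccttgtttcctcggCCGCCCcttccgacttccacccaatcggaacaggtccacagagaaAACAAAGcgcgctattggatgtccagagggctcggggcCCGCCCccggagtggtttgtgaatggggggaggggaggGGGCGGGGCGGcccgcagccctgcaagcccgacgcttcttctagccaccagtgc
Axin2, chr11:108920099-108920348: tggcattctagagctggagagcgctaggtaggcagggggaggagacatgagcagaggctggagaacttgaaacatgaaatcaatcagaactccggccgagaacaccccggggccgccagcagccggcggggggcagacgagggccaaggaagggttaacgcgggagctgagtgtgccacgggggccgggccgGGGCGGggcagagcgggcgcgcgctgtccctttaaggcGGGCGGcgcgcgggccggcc

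The Fzd7 window holds 1 TCF/LEF core, on the minus strand 130 bases before the start (AACAAAG as printed), and 6 GC boxes. The Axin2 window holds 2 GC boxes and no TCF/LEF core. The 250-base Wnt4 window, whose leading 100 bases are shown, holds 8 GC boxes and no TCF/LEF core. Fzd4 has 7 GC boxes and no core, and Tcf7l2 has 6 GC boxes at one start and 1 core, 14 bases before the start, at the other. Over all 32851 windows of this length 14.8% hold a TCF/LEF core and 32.7% a GC box. A match is a run of letters, not a measured binding site, and nothing follows about the factors from its presence or absence.

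Wnt4 was the most abundant of the 19 Wnt ligand genes in 10 of the 11 libraries (Wnt11 was higher in VCAM1-high replicate 1, at 4.2 against 3.81 RPKM), and its level was lower in every geriatric library than in every middle-aged one. It read 15.7, 16.6 and 16.8 RPKM in the middle-aged libraries, 3.81, 6.64 and 13.8 for VCAM1-high, 7.94 and 8.36 for VCAM1-low, and 7.31, 8.06 and 14.3 for VCAM1-negative (replicates in order of number). The middle-aged libraries lay close together, while the VCAM1-high libraries spread widely. Replicate 3 was the highest library of both VCAM1-high and VCAM1-negative.

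Group means of Wnt4 were 16.4 ± 0.606 RPKM (SD, n = 3) in middle-aged, 9.89 ± 3.84 (n = 3) in VCAM1-negative, 8.15 for VCAM1-low (n = 2) and 8.09 ± 5.16 (n = 3) in VCAM1-high. The 3 geriatric neighbours in this order do not differ beyond their spread. Differences below are on the log2(RPKM + 1) scale with the standard error of 1 limma fit, and a gene passed, or was called, at a p under 0.05 after adjustment over all 11568 genes tested. VCAM1-high differed from middle-aged by -1.09 ± 0.35 (95% interval -1.87 to -0.31), which did not pass (limma adjusted p = 0.19). The matching differences were -0.73 ± 0.35 for VCAM1-negative (interval -1.51 to 0.05, limma adjusted p = 0.172) and -0.92 ± 0.40 for VCAM1-low (interval -1.79 to -0.05, limma adjusted p = 0.168).

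The VCAM1-high difference in Wnt4 depended on single libraries. Without VCAM1-high replicate 1 it was -0.71 (limma adjusted p = 0.343). Without VCAM1-high replicate 3 it was -1.52 (limma adjusted p = 0.0289, and 0.0422 for the F test over the 4 groups against 0.23 with all libraries), and without the 3 libraries numbered 3 it was -1.5 (limma adjusted p = 0.0425). With replicate number as a block it was -1.09 ± 0.25 (limma adjusted p = 0.0359). What that number stands for between the age groups is not given by the labels. Between the gates Wnt4 stood 0.36 ± 0.35 higher in VCAM1-negative than in VCAM1-high (interval -0.42 to 1.14, limma adjusted p = 0.885), a gap of 0.79 in the libraries numbered 1, 0.25 in those numbered 2 and 0.05 in those numbered 3. Summed over 12 genes, muscle stem cell markers were at 3435 to 4456 RPKM for middle-aged, 2351 to 4342 for VCAM1-high, 2256 and 2766 for VCAM1-low and 1704 to 2612 for VCAM1-negative, and their part in the lower Wnt4 was not tested. VCAM1-high replicate 3, the library with Wnt4 at 13.8 RPKM, also held the most macrophage markers (10 genes, 860 RPKM against at most 213 in any other library). The part of these cells in its Wnt4 level was not tested. Myofibre markers (11 genes) summed to 213, 163 and 336 RPKM in middle-aged replicates and 63.3, 118 and 156 for VCAM1-high. For VCAM1-low the myofibre sums were 56.5 and 166 RPKM, and for VCAM1-negative 699, 7242 and 5637. The part of myofibre RNA in the Wnt4 levels was not tested either.

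The share of Wnt4 in the summed level of the Wnt ligands was 73.6% ± 6.89 (SD, n = 3) in middle-aged, 41.7% ± 10.5 (n = 3) in VCAM1-high, 51.8% ± 10.3 (n = 3) in VCAM1-negative, and 45.9% and 52.0% in the VCAM1-low libraries. The lowest middle-aged share, 65.6%, was above the highest geriatric share, 61.4%. The ligand sum itself ran from 20.1 to 25.6 RPKM among middle-aged libraries. It ran from 12.4 to 26.8 among VCAM1-high and from 15.2 to 23.3 among VCAM1-negative libraries, so these sums overlapped the middle-aged ones. The VCAM1-low sums, 17.3 and 16.1 RPKM, were below every middle-aged one. Behind Wnt4 came Wnt11, a ligand known mainly for beta-catenin-independent signalling, then Wnt9a and Wnt10a. Of the 19 ligand genes 5 passed the filter.

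**Figure D1:**
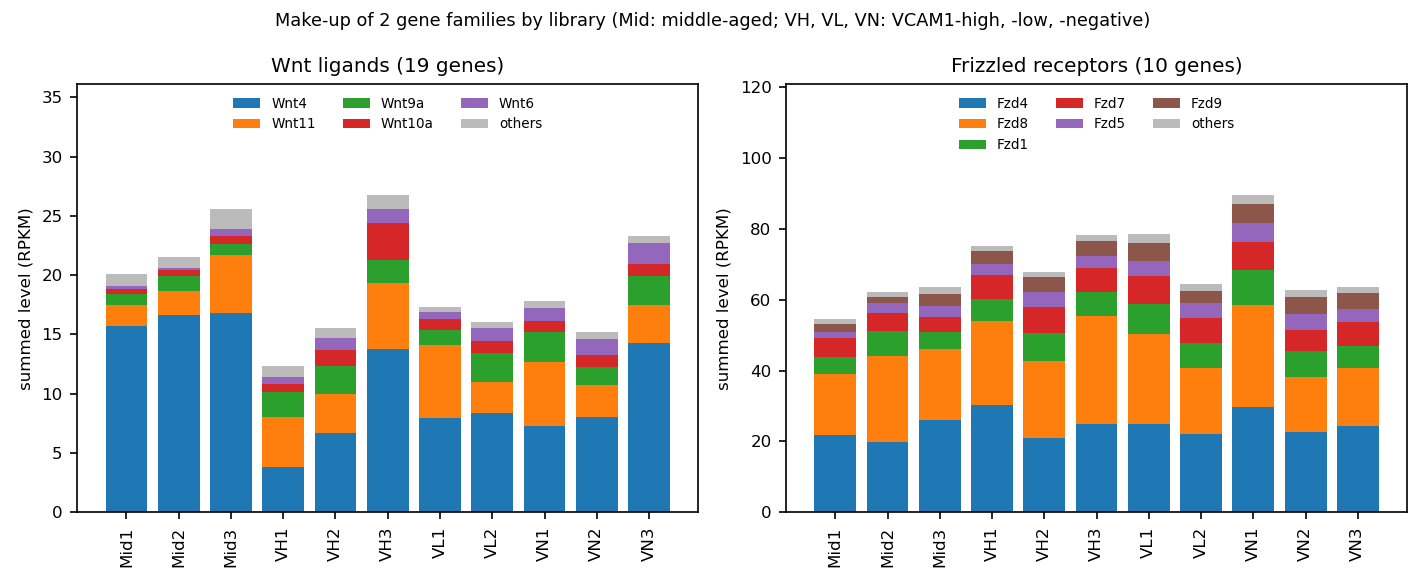
Stacked bars give the summed level in RPKM of the 19 Wnt ligand genes (left) and the 10 Frizzled genes (right) in each of the 11 libraries (Mid, middle-aged; VH, VL and VN, VCAM1-high, VCAM1-low and VCAM1-negative). The Wnt4 segment is 15.7 to 16.8 RPKM in the middle-aged libraries and 3.81 to 14.3 in the geriatric ones, while Fzd4 stays between 19.8 and 30.2.

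Rspo3, which encodes an R-spondin that binds LGR receptors and the ubiquitin ligases ZNRF3 and RNF43, was near the detection limit everywhere. It read 0.082, 0.15 and 0.0974 RPKM in middle-aged replicates, 0.0626, 0.223 and 0.151 for VCAM1-high, 0.058 and 0.121 for VCAM1-low, and 0.431, 0.193 and 0.835 for VCAM1-negative. All 3 VCAM1-negative libraries were above all middle-aged ones, and VCAM1-negative replicate 2 lay within the VCAM1-high range. These levels correspond to an estimated 3.8 to 58.8 reads per library, and the gene did not pass the filter of 1 RPKM in 2 libraries.

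In a fit with no filter Rspo3 was 0.40 ± 0.13 higher in VCAM1-negative than in middle-aged (limma adjusted p = 0.104) and 0.36 ± 0.13 higher than in VCAM1-high (limma adjusted p = 0.692), on the log2(RPKM + 1) scale, which compresses low genes. No R-spondin reached 1 RPKM in 2 libraries. Of their receptors Lgr4 was at 6.5 to 11 RPKM in every library, and Lgr5 at 0.0212 to 0.282. Myofibre markers summed to 699, 7242 and 5637 RPKM in the VCAM1-negative libraries 1 to 3, against at most 336 in any other library, and macrophage markers to 77.5, 89.7 and 213 RPKM. The part of either cell type in the Rspo3 level was not tested.

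Fzd4, the receptor known for Norrin and Wnt signalling in endothelium, had the highest mean of the Frizzled genes over the 11 libraries, and its levels overlapped between all 4 groups. It read 21.8, 19.8 and 26.0 RPKM in middle-aged replicates, 30.2, 21.0 and 25.0 for VCAM1-high, 24.9 and 22.0 for VCAM1-low, and 29.7, 22.5 and 24.3 for VCAM1-negative. The highest library of every geriatric gate was number 1, and the highest middle-aged library was number 3.

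Fzd4 in VCAM1-high differed from middle-aged by 0.16 ± 0.19 (interval -0.25 to 0.57, limma adjusted p = 0.714) and VCAM1-negative from VCAM1-high by 0.01 ± 0.19 (interval -0.40 to 0.42, limma adjusted p = 0.993). It made up 31.0% to 40.9% of the summed Frizzled level in each library. It was ahead of Fzd8 (15.8 to 30.5 RPKM) in 7 of the 11 libraries, and Fzd8 was the higher in the 4 others (middle-aged replicate 2, VCAM1-high replicates 2 and 3 and VCAM1-low replicate 1). Endothelial markers (12 genes) summed to 17.3 RPKM in VCAM1-high replicate 1, where Fzd4 was highest. In the middle-aged replicates they summed to 22.8, 29.7 and 234 RPKM, beside Fzd4 at 21.8, 19.8 and 26.0, and their part in the Fzd4 level was not tested.

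Fzd7, the receptor through which WNT7A is known to act on satellite cells, was higher in every geriatric library than in every middle-aged one, by a small amount. It read 5.30, 5.26 and 4.32 RPKM in middle-aged replicates, 6.80, 7.44 and 6.75 for VCAM1-high, 7.88 and 7.08 for VCAM1-low, and 7.77, 5.98 and 6.74 for VCAM1-negative. The highest middle-aged library (5.30) and the lowest geriatric one (5.98) were close. Means were 7.48 in VCAM1-low, 7.0 ± 0.385 in VCAM1-high, 6.83 ± 0.901 in VCAM1-negative and 4.96 ± 0.556 in middle-aged (SD, n = 3 apart from the 2 of VCAM1-low), and the geriatric gates do not differ beyond their spread.

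No Fzd7 difference passed the threshold over all genes. VCAM1-high exceeded middle-aged by 0.43 ± 0.16 (interval 0.08 to 0.77, limma adjusted p = 0.24), VCAM1-negative by 0.39 ± 0.16 (interval 0.05 to 0.74, limma adjusted p = 0.108) and VCAM1-low by 0.51 ± 0.18 (interval 0.13 to 0.90, limma adjusted p = 0.105). The ratio of means over middle-aged was 1.41 for VCAM1-high, 1.38 for VCAM1-negative and 1.51 for VCAM1-low. Between VCAM1-negative and VCAM1-high the difference was -0.04 ± 0.16 (interval -0.38 to 0.31, limma adjusted p = 0.973).

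Lrp6, a coreceptor that forms the Wnt receptor complex with a Frizzled, was lower in all VCAM1-negative libraries than in all middle-aged ones. It read 7.04, 8.90 and 8.61 RPKM in middle-aged replicates, 6.77, 7.11 and 5.55 for VCAM1-high, 7.16 and 6.61 for VCAM1-low, and 5.93, 5.94 and 6.16 for VCAM1-negative. The VCAM1-negative libraries lay close together, and VCAM1-high and VCAM1-low each overlapped the middle-aged range. The difference between VCAM1-negative and middle-aged was -0.38 ± 0.16 (interval -0.73 to -0.04, limma adjusted p = 0.114), and that between VCAM1-high and middle-aged -0.30 ± 0.16 (interval -0.64 to 0.05, limma adjusted p = 0.397).

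Lrp5, the second coreceptor, was below 1 RPKM in all libraries and did not pass the filter. Its values were 0.623, 0.798 and 0.309 RPKM in middle-aged replicates, 0.522, 0.398 and 0.426 for VCAM1-high, 0.618 and 0.361 for VCAM1-low, and 0.706, 0.437 and 0.673 for VCAM1-negative, with every group overlapping the middle-aged range. In the fit with no filter Lrp5 differed by 0.14 ± 0.13 between VCAM1-negative and VCAM1-high (limma adjusted p = 0.888) and by -0.11 ± 0.13 between VCAM1-high and middle-aged (limma adjusted p = 0.745). Lrp6 thus held 89.4% to 96.5% of the summed LRP5 and LRP6 level in every library.

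Tcf7l2, which encodes a TCF factor that carries beta-catenin to target genes, was higher in all VCAM1-low and VCAM1-negative libraries than in all middle-aged ones. It read 8.25, 9.60 and 7.01 RPKM in middle-aged replicates, 9.38, 11.8 and 8.74 for VCAM1-high, 11 and 11.6 for VCAM1-low, and 10.8, 10.5 and 12.0 for VCAM1-negative. The VCAM1-high libraries overlapped both sides. VCAM1-negative exceeded middle-aged by 0.39 ± 0.17 (interval 0.01 to 0.76, limma adjusted p = 0.137), VCAM1-low by 0.41 ± 0.19 (limma adjusted p = 0.193) and VCAM1-high by 0.24 ± 0.17 (interval -0.13 to 0.61, limma adjusted p = 0.527).

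The TCF most abundant in these cells was not Tcf7l2 but Tcf7l1, known mainly as a repressor, at 16.5 to 23.3 RPKM. Tcf7l2 made up 24.7% ± 3.20 of the 4 TCF and LEF genes in middle-aged and 30.8% ± 1.77 in VCAM1-negative (SD, n = 3 each), and Tcf7l1 66.5% ± 3.86 and 53.1% ± 2.44. These shares also depend on Tcf7, at 3.48, 2.69 and 2.5 RPKM in middle-aged and 4.22, 5.48 and 7.56 in VCAM1-negative. Tcf7 differed by 0.77 ± 0.29 in this comparison (limma adjusted p = 0.0921) and Tcf7l1 by -0.21 ± 0.17 (limma adjusted p = 0.408), and neither passed.

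Axin2, a target of beta-catenin that in turn helps degrade it, was barely detected in any group. It read 0.111, 0.126 and 0.0939 RPKM in middle-aged replicates, 0.117, 0.193 and 0.0424 for VCAM1-high, 0.229 and 0.107 for VCAM1-low, and 0.112, 0.0867 and 0.0919 for VCAM1-negative. The groups overlapped, and the values stand for an estimated 6.5 to 27.2 reads per library. No difference between groups was called in the fit with no filter (VCAM1-negative against middle-aged -0.02 ± 0.05, limma adjusted p = 0.912). The log2(RPKM + 1) scale compresses low genes, so the small difference and error do not show that the groups are equal. Its paralogue Axin1, a constant part of the destruction complex, was at 19.4 to 36.3 RPKM.

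Sfrp1 encodes a secreted Frizzled-related protein that binds Wnts. It was the only one of the 7 tested genes called in the fit of all 11 libraries without a replicate block. Its mean over the 8 geriatric libraries was 2.99 times that of the middle-aged ones. It read 0.602, 1.61 and 1.37 RPKM in middle-aged replicates, 3.82, 3.50 and 3.34 for VCAM1-high, 3.20 and 3.88 for VCAM1-low, and 4.31, 3.54 and 2.99 for VCAM1-negative. The lowest geriatric library (2.99) stood well above the highest middle-aged one (1.61), and the gates overlapped each other. Behind these values are an estimated 66.8 to 473.1 reads per library.

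Means of Sfrp1 were 1.19 ± 0.527 RPKM in middle-aged, 3.56 ± 0.242 in VCAM1-high and 3.61 ± 0.662 in VCAM1-negative (SD, n = 3 each), and 3.54 in VCAM1-low (n = 2). VCAM1-negative exceeded middle-aged by 1.09 ± 0.21 on the log2(RPKM + 1) scale (limma adjusted p = 0.0118), or 3.02-fold in the ratio of means. VCAM1-low rose by 1.08 ± 0.23 (limma adjusted p = 0.0371, 2.96-fold) and VCAM1-high by 1.08 ± 0.21 (limma adjusted p = 0.0491, 2.98-fold). Between VCAM1-negative and VCAM1-high the difference was 0.01 ± 0.21 (interval -0.45 to 0.47, limma adjusted p = 0.996).

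The VCAM1-negative rise of Sfrp1 passed in all 17 alternative settings tried (adjusted p 0.00514 to 0.0438). The VCAM1-high rise sat at the threshold: among the omissions of 1 library it passed without VCAM1-high replicate 3 (limma adjusted p = 0.0454) and lost its call without any of the 10 others (limma adjusted p 0.0675 to 0.195, difference 0.87 to 1.22). The VCAM1-low rise lost its call without VCAM1-high replicate 1 (limma adjusted p = 0.055), VCAM1-low replicate 1 (0.0808) or 2 (0.323), or middle-aged replicate 1 (0.0873) or 3 (0.0645). Without the 3 libraries numbered 3 the VCAM1-high rise was 1.19 (limma adjusted p = 0.0836).

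Other cell types were checked beside the Sfrp1 rise. Middle-aged replicate 3 held the most tenocyte markers, 167 RPKM, and had Sfrp1 at 1.37 RPKM, while the 8 geriatric libraries held 27.2 to 60.2 RPKM of these markers and had Sfrp1 at 2.99 or more. Middle-aged replicates 1 and 2 had 16.3 and 22.9 RPKM of tenocyte markers. The summed fibro-adipogenic markers (10 genes) ran from 1880 to 3525 RPKM among middle-aged libraries and from 1175 to 2298 among geriatric ones. Most of that sum was Gsn, which ran from 1266 to 2299 RPKM among middle-aged and from 646 to 1436 RPKM among geriatric libraries, while Dcn read 24.5, 52.9 and 485 RPKM in middle-aged replicates and 326 to 795 in geriatric ones. Pdgfra was 0.113, 0.136 and 1.69 RPKM in middle-aged replicates and 0.5 to 2.37 in geriatric libraries, so both genes were low in middle-aged replicates 1 and 2 and within the geriatric range in replicate 3. Of the 75 marker genes of all lists, 2 were higher in every geriatric library than in every middle-aged one. They were the tenocyte gene Scx (10.7 RPKM or more against 7.39 or less) and the mural gene Abcc9 (2.53 or more against 2.17 or less). Another 3 were lower in every geriatric library. These were the fibro-adipogenic genes Dpt (117 RPKM or less against 142 or more) and Col3a1 (201 or less against 290 or more), and the mural gene Tagln (39.1 or less against 65.8 or more). All were singled out after their values were seen, and the share of all genes that separate in this way was not counted. The part of these cells in the Sfrp1 rise was not tested. Within the SFRP family Sfrp4 was the most abundant gene (4.56 to 67.6 RPKM), and Sfrp1 made up 4.19% to 12.9% of the family sum.

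Dkk3, a divergent member of the Dickkopf family of secreted proteins, varied between libraries more than between groups. It read 0.195, 0.196 and 1.31 RPKM in middle-aged replicates, 0.117, 0.144 and 0.947 for VCAM1-high, 0.027 and 0.447 for VCAM1-low, and 1.10, 0.484 and 1.13 for VCAM1-negative. Replicate 3 was by far the highest library of middle-aged and of VCAM1-high. The gene passed the filter through 3 libraries only, middle-aged replicate 3 and VCAM1-negative replicates 1 and 3. VCAM1-negative differed from VCAM1-high by 0.47 ± 0.32 (interval -0.24 to 1.18, limma adjusted p = 0.853) and from middle-aged by 0.34 ± 0.32 (interval -0.37 to 1.04, limma adjusted p = 0.49). Between VCAM1-high and middle-aged the difference was -0.14 ± 0.32 (limma adjusted p = 0.866). The size of these differences depended on the pseudocount: with 0.1 in place of 1, VCAM1-negative differed from VCAM1-high by 1.32 ± 0.88 (limma adjusted p = 0.843) and from middle-aged by 0.93 ± 0.88 (limma adjusted p = 0.474).

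The libraries with high Dkk3 in middle-aged and VCAM1-high also had the highest endothelial, tenocyte, macrophage, fibro-adipogenic, Schwann cell and myofibre marker sums of their groups. Replicate 3 of these groups had endothelial sums of 234 and 87.0 RPKM (12 of 12 genes in the table), against 17.3 to 35.4 in replicates 1 and 2. Tenocyte markers (6 genes) were at 167 and 60.2 RPKM there against 16.3 to 36.8, and macrophage markers (10 genes) at 139 and 860 against 2.79 to 27.4. Fibro-adipogenic markers (10 genes) were at 3525 and 2298 RPKM there against 1219 to 1976. In the VCAM1-negative libraries 1 to 3 the endothelial sum was 76.0, 110.0 and 38.9 RPKM and the tenocyte sum 40.0, 45.8 and 48.2. The macrophage sum was 77.5, 89.7 and 213 RPKM there, and the fibro-adipogenic sum 1966, 1186 and 2103. The mural sum was not highest in replicate 3 of middle-aged, at 451 RPKM in replicate 1 against 311 in replicate 3. Single genes did not all follow their list: in VCAM1-high replicates Scx was 16.4, 15.7 and 12.1 RPKM and Dcn 326, 501 and 439. The part of these cells in the Dkk3 level was not tested.

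**Figure D2:**
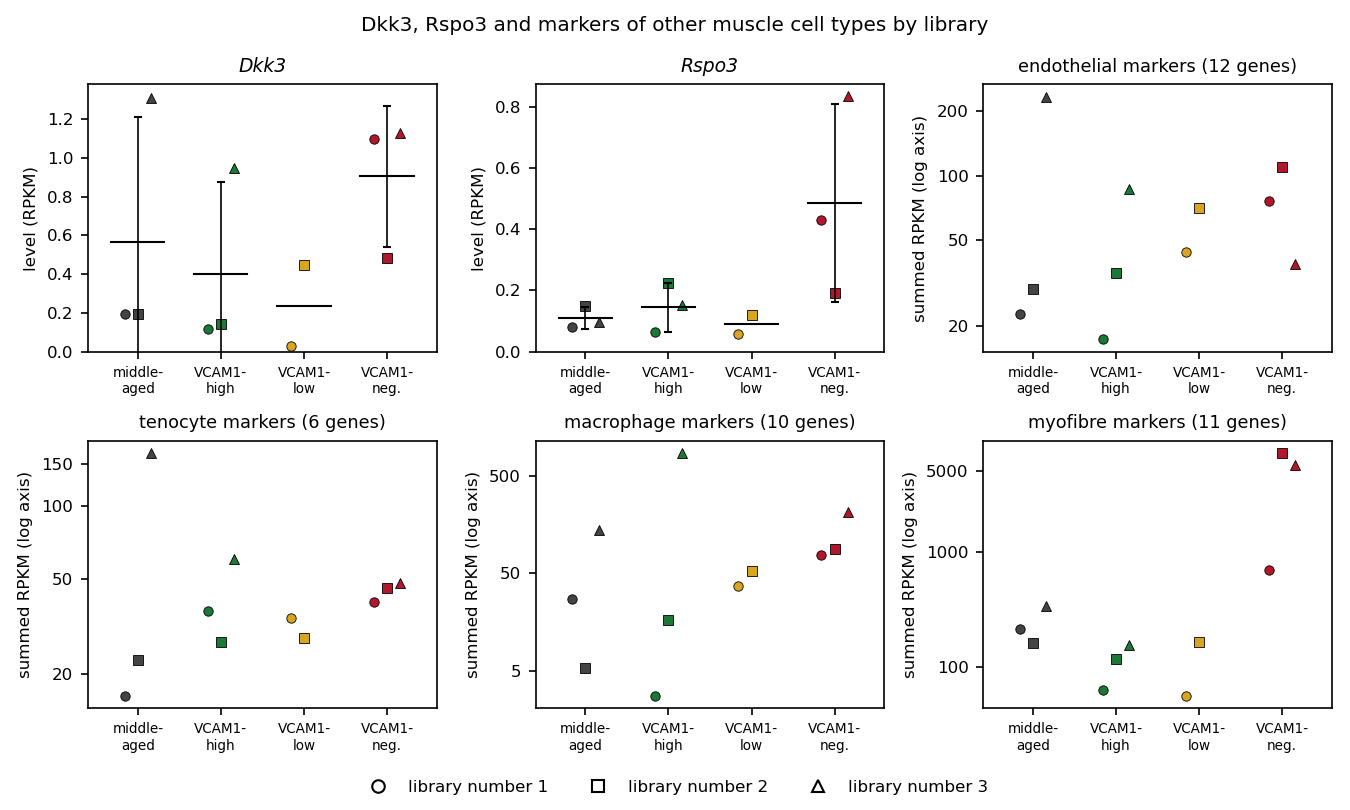
Dkk3 and Rspo3 levels (RPKM, linear axes from 0, bar at the group mean, whiskers 1 SD for groups of 3, cut at 0) and summed levels of 4 marker lists (RPKM, log axes), with 1 point per library. Number-3 libraries (triangles) are the highest for Dkk3 and for the endothelial, tenocyte and macrophage sums in both middle-aged and VCAM1-high, and myofibre sums reach 699 to 7242 only in VCAM1-negative.

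**Figure D3:**
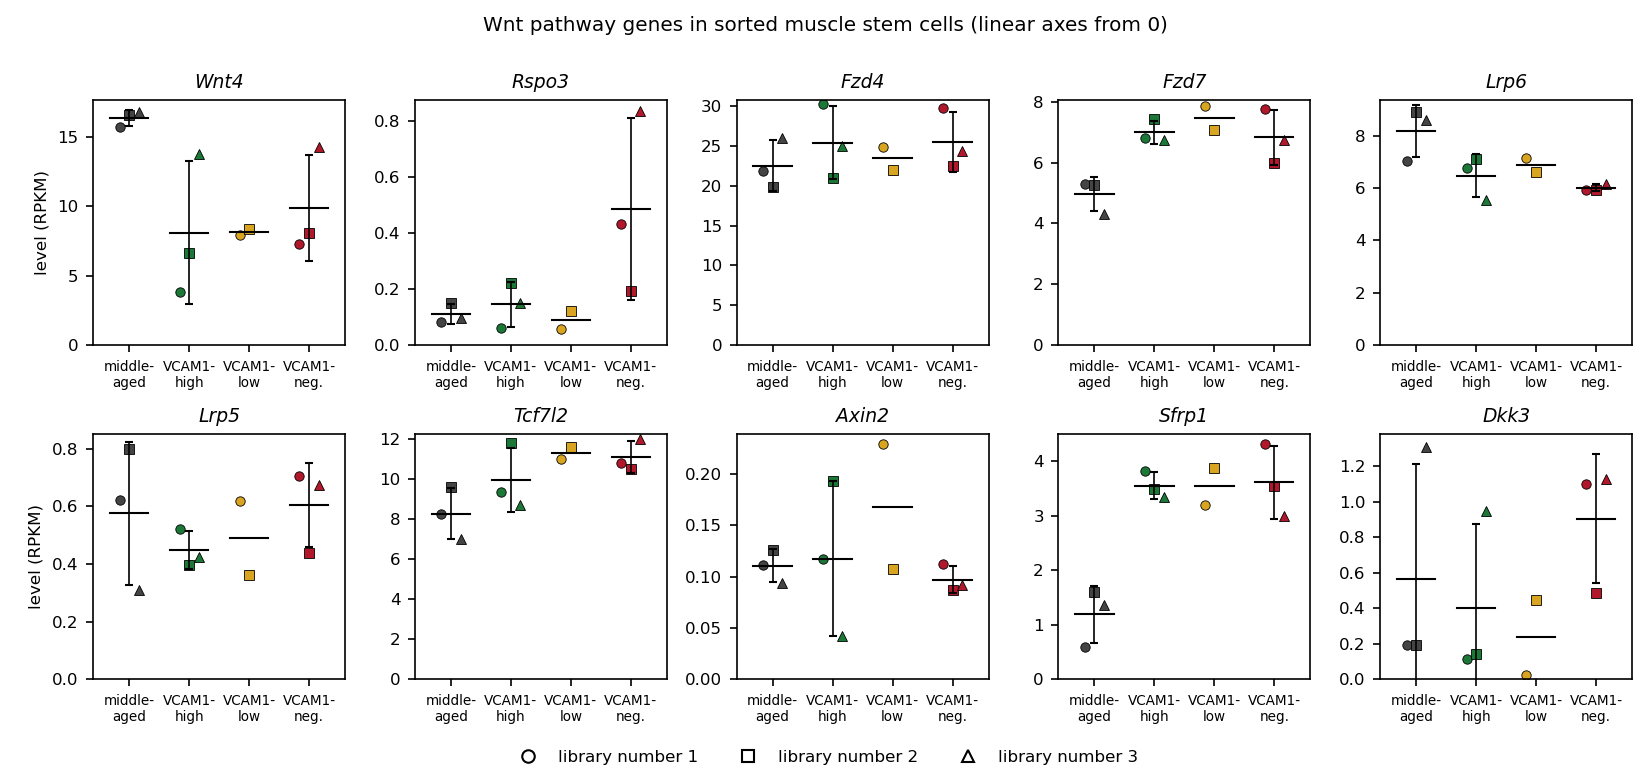
Level in RPKM (linear axes from 0) of the 10 genes in each library, by group, with the symbol giving the library number, a line at the group mean and whiskers of 1 SD for groups of 3 (cut at 0). Wnt4 is lower, and Fzd7 and Sfrp1 higher, in all 8 geriatric libraries than in the 3 middle-aged ones.

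Across the 7 genes that passed the filter, 1 was called between VCAM1-high and middle-aged (Sfrp1), where 0.605% of the 11568 genes tested were called (70 genes), or 6.98% with replicate number as a block (807 genes). With that block 2 of the 7 were called, Wnt4 (limma adjusted p = 0.0359) and Sfrp1 (limma adjusted p = 0.0225). In VCAM1-negative against middle-aged, Sfrp1 again was the only call, against 14.4% of all genes (1671 genes). The same held for VCAM1-low against middle-aged, where 4.11% of all genes passed, and for the F test over the 4 groups, where 3.32% passed. One call in 7 genes is near the background in the VCAM1-negative comparison, so it says nothing particular about the Wnt genes as a set.

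Without regard to the test, libraries did not overlap between VCAM1-high and middle-aged for 3 of the 7 genes (Wnt4 lower, Fzd7 and Sfrp1 higher), against 20.2% of all genes. Between VCAM1-negative and middle-aged it was 5 of 7 (Wnt4 and Lrp6 lower, Fzd7, Tcf7l2 and Sfrp1 higher), against 39% of all genes. Between VCAM1-low and middle-aged it was 4 of 7 (Wnt4 lower, Fzd7, Tcf7l2 and Sfrp1 higher), against 44.8%, a share like that of all genes.

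Among the geriatric gates none of the 7 genes passed. Between VCAM1-negative and VCAM1-high limma called 0 of 11568 genes, 0% (755, or 6.53%, had an unadjusted p under 0.05), and none of the 7 was non-overlapping, against 11.4% of all genes. When the 8 geriatric libraries were fitted with a block for replicate number, 500 genes (4.42%) were called and still none of the 7 passed, the nearest being Wnt4 (limma adjusted p = 0.247). VCAM1-low against VCAM1-high, and VCAM1-negative against VCAM1-low, also had 0 calls over all genes (337 and 217 had an unadjusted p under 0.05). The 95% intervals for VCAM1-negative against VCAM1-high reach no farther than 0.52 in either direction for Fzd4, Fzd7, Lrp6, Tcf7l2 and Sfrp1, while those of Wnt4 and Dkk3 reach 1.14 and 1.18.

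**Figure D4:**
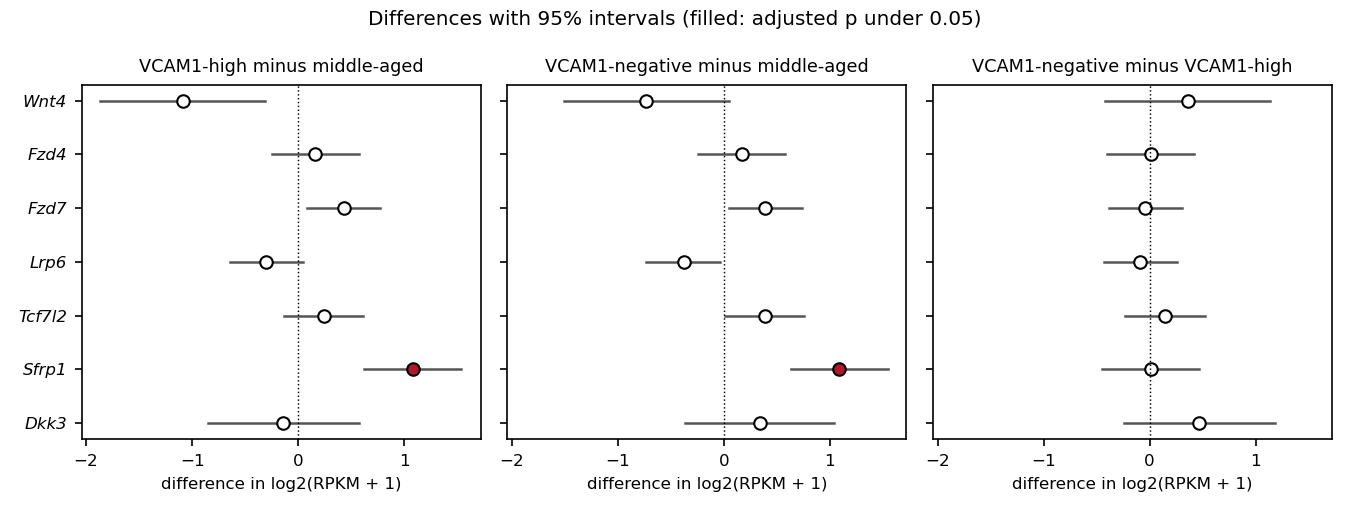
Difference in log2(RPKM + 1) with its 95% interval for the 7 tested genes in 3 comparisons, filled where the limma adjusted p is under 0.05. Sfrp1 is filled at 1.08 and 1.09 against middle-aged, Wnt4 lies at -1.09 and -0.73, and all 7 intervals in the comparison of VCAM1-negative with VCAM1-high include 0.

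Of 103 Wnt pathway genes in 10 lists, 60 passed the filter, the 7 above included. VCAM1-negative against middle-aged called 6 higher and 2 lower of the 60, or 13.3% against 14.4% of all genes (median log2 difference 0, against -0.02). VCAM1-low against middle-aged called 1 higher and 1 lower, or 3.33% against 4.11% (median -0.02, against -0.05). VCAM1-high against middle-aged called 1 higher, or 1.67% against 0.605% (median 0.05, against 0.04). VCAM1-negative against VCAM1-high called 0 of the 60 (4, or 6.67%, had an unadjusted p under 0.05, against 6.53% of all genes). No list had more than 3 calls, and the lists of the destruction complex (10 tested), nuclear effectors (11 tested), coreceptors (5 tested), planar polarity (6 tested), R-spondin signalling (2 tested) and ligand secretion (2 tested) had none in any comparison.

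The largest change among the other pathway genes was in Ccnd1, the cyclin D1 gene, which is listed as a target of beta-catenin and drives entry into the cell cycle. It read 18.5, 5.34 and 20.7 RPKM in middle-aged replicates, 1.86, 1.75 and 7.58 for VCAM1-high, 0.801 and 0.706 for VCAM1-low, and 1.11, 0.499 and 0.951 for VCAM1-negative. All VCAM1-low and VCAM1-negative libraries were below every other library. Ccnd1 fell by 2.92 ± 0.50 in VCAM1-negative against middle-aged (limma adjusted p = 0.00876, passing in all 17 alternative settings) and by 2.99 ± 0.56 in VCAM1-low (limma adjusted p = 0.0243). The VCAM1-low fall lost its call without VCAM1-low replicate 1 (limma adjusted p = 0.0763) or 2 (0.23) or middle-aged replicate 1 (0.0763) or 3 (0.0575). In VCAM1-high the difference was -1.77 ± 0.50 (limma adjusted p = 0.137). Mural cell markers (8 genes) summed to 451, 134 and 311 RPKM in middle-aged replicates, 129, 84.9 and 182 for VCAM1-high, 90.3 and 62.9 for VCAM1-low, and 145, 69.7 and 118 for VCAM1-negative. Most of that sum was Acta2 and Tagln, and the list was mixed. Tagln was lower in every geriatric library than in every middle-aged one (8.62 to 39.1 against 65.8 to 105 RPKM), and Abcc9 was higher (2.53 to 5.23 against 0.864 to 2.17). The other genes of the list overlapped between the age groups. The part of mural cells in the Ccnd1 fall was not tested.

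The other 2 targets with a call went opposite ways. Myc, which encodes a transcription factor of growth and was the most abundant gene of the target list, was 574, 822 and 851 RPKM in middle-aged and 1208, 1475 and 1249 in VCAM1-negative, a rise of 0.82 ± 0.21 (limma adjusted p = 0.0289). Ccn4, a secreted matricellular protein gene first described as a Wnt1-induced gene, was 16.5, 11 and 6.12 RPKM in middle-aged and 3.15, 2.86 and 5.49 in VCAM1-negative, a fall of -1.28 ± 0.35 (limma adjusted p = 0.0354). For both genes the VCAM1-negative and middle-aged libraries did not overlap. Myc lost its call without VCAM1-negative replicate 2 (limma adjusted p = 0.11) or 3 (0.0563) or middle-aged replicate 1 (0.0915). Ccn4 lost it without VCAM1-negative replicate 1 (0.0809) or 2 (0.126) or middle-aged replicate 1 (0.117) or 2 (0.0776).

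Receptor and ligand genes outside the 10 that passed in VCAM1-negative against middle-aged were all higher. Fzd9 was 2.1, 1.47 and 3.4 RPKM in middle-aged and 5.44, 4.77 and 4.29 in VCAM1-negative (0.85 ± 0.23, limma adjusted p = 0.0339). Fzd5 was 1.69, 2.86 and 3.09 RPKM and 5.28, 4.63 and 3.82 (0.67 ± 0.20, limma adjusted p = 0.0469). The ligand gene Wnt6 was 0.266, 0.195 and 0.548 RPKM and 1.09, 1.32 and 1.77 (0.84 ± 0.22, limma adjusted p = 0.0324). No middle-aged library of Wnt6 reached the 1 RPKM of the filter, so it passed through the geriatric libraries where it was high. Over 17 alternative settings the call held in 2 for Fzd5, 10 for Fzd9 and 12 for Wnt6, whose difference was 1.83 with a pseudocount of 0.1. With no filter the limma adjusted p was 0.0912 for Fzd5 and 0.0716 for Fzd9. Fzd9 lost its call without any 1 VCAM1-negative library or without middle-aged replicate 1 or 2 (limma adjusted p 0.0587 to 0.101), Fzd5 without any 1 of the 11 libraries (0.0521 to 0.146), and Wnt6 without VCAM1-negative replicate 2 or 3 or middle-aged replicate 1 or 2 (0.0791 to 0.0963).

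Sfrp4, a second secreted inhibitor, was 4.56, 16.7 and 14.1 RPKM in middle-aged and 39.4, 29.8 and 32.7 in VCAM1-negative, a rise of 1.61 ± 0.47 (limma adjusted p = 0.0439). It lost its call without either VCAM1-low library, any 1 VCAM1-negative library, or middle-aged replicate 1 or 3 (limma adjusted p 0.056 to 0.132). In VCAM1-high it was 22.1, 67.6 and 23.0 RPKM, all above the middle-aged libraries, with a difference of 1.56 ± 0.47 that did not pass (limma adjusted p = 0.155). Over 17 alternative settings the call held in 8 for Sfrp4 and in 12 each for Myc, Ccn4 and the VCAM1-low fall of Ccnd1. Both secreted inhibitors with a call, Sfrp1 and Sfrp4, were thus higher against middle-aged, but the family did not move as 1. Sfrp2 was 1.59, 2.04 and 6.21 RPKM in middle-aged and 0.833, 0.507 and 1.17 in VCAM1-negative (-1.08 ± 0.59, limma adjusted p = 0.223). Sfrp5 differed by 0.28 ± 0.49 in the same comparison (limma adjusted p = 0.723).

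The most abundant gene of each remaining list showed what the cells held of the pathway. Csnk1a1, a kinase of the destruction complex, averaged 128 RPKM over the 11 libraries, the coreceptor gene Ryk 44.2, Kremen1 (a receptor for Dickkopf proteins) 41.5, the Wnt transporter Wls 27.5, Tcf7l1 19.7, the planar polarity gene Prickle3 9.5 and Lgr4 8.57. None of these 7 genes passed in any comparison.

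For the 6 genes that average 1 RPKM or more, the tested genes with the most similar pattern were found by Pearson's r of log2(RPKM + 1) over the 11 libraries, which describes these libraries only. Wnt4 was closest to Gnl1 (r = 0.949), Dxo (0.94) and Map3k11 (0.916). Fzd7 was closest to Znrf2 (0.945), Ssh2 (0.936) and Zfp119a (0.935), and Fzd4 to Lyrm1 (0.901), Rbks (0.898) and Ccdc17 (0.868).

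Sfrp1 was closest to Cx3cl1 (r = 0.973), which encodes the chemokine fractalkine, then Sv2b (0.967) and Arhgap29 (0.957). Cx3cl1 ran from 20.8 to 43.1 RPKM in the middle-aged libraries and from 68.7 to 82.5 in geriatric ones. It was picked for its likeness to Sfrp1 in these same libraries, so its gap between the age groups is no separate observation. Lrp6 was closest to Bdh2 (0.87), Arid5b (0.852) and Rps6ka5 (0.851), and Tcf7l2 to Hipk3 (0.956), Zc3h12a (0.952) and Galc (0.946). For Wnt4 the leading match, Gnl1, ran from 46.5 to 50.4 RPKM in the middle-aged libraries and from 23.5 to 44.6 in geriatric ones.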

How the data were processed

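RNA of sorted YFP+ cells was amplified with SMART-Seq v4 and sequenced as paired ends, per the labels' protocols. Build GRCm39 and the tools STAR 2.7.5b, cutadapt 3.1, SAMtools 0.1.19 and Bowtie2 2.1.0 are listed in the submitters' processing notes. The sources used here do not name the counting tool or the gene lengths. RPKM values were deposited by the authors, so no count test was run. Depth was estimated from the steps of low RPKM values with GENCODE lengths on another build (a share of 64.6% to 73.5% of low values were whole reads within a tolerance of 0.1, where chance gives 20%), so read numbers are estimates.

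The analysis used limma 3.58.1 (R 4.3.3) on log2(RPKM + 1), over the 11568 genes that reached 1 RPKM in 2 libraries or more. One fit gave 4 group means over 11 libraries, with a variance trend and Benjamini-Hochberg adjustment over all genes. A gene was called at adjusted p under 0.05. The fit was tested on simulated data. Genes and lists were chosen with earlier results of these data known. Named genes are the 10, pathway genes with adjusted p under 0.05, the top gene of each list, sort markers, and 3 similar genes for each of the 10 that averages 1 RPKM or more. Wnt11, Wnt9a, Wnt10a, Fzd8, Axin1, Lgr5, Tcf7, Sfrp2 and Sfrp5 were added after their values were seen.

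Deviations from group means correlated at 0.40 to 0.58 between same-numbered geriatric libraries. Between VCAM1-high and middle-aged libraries they correlated at 0.21, 0.33 and 0.55 for numbers 1, 2 and 3, and at -0.48 to 0.33 where the numbers differed. VCAM1-high replicate 1 was thus closer to middle-aged replicate 2 (0.33) than to replicate 1 (0.21). Replicate number was used as a block, but between the age groups these values do not settle that the numbers pair. Alternatives were another pseudocount (0.1), no filter, median-ratio scaling, only the groups compared, the replicate block, and leaving out each library. Leaving out the 3 libraries numbered 3 was added after seeing the data.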

Additional observations from a re-analysis of the deposited data

How the results depend on the processing

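Single genes were not followed through the alternatives in VCAM1-low against VCAM1-high or in VCAM1-negative against VCAM1-low. The counts of sign changes below leave these comparisons out. No call on the 10 genes changed direction. Beside the changes of call given above, Wnt4 in VCAM1-low against middle-aged passed when only these groups were fitted (limma adjusted p = 0.0454). The Sfrp1 rises in VCAM1-high and VCAM1-low did not pass with no filter (0.12 and 0.0758), that in VCAM1-high also under median-ratio scaling (0.0818) and with only the groups compared (0.145), and the F test of Sfrp1 passed in 6 of 16 alternatives. Of the differences without a call, 7 changed sign, 11 times in all: Fzd7 in VCAM1-negative against VCAM1-high was 0.03 under median-ratio scaling and ran from -0.12 to 0.04 when 1 library was left out, and the other omission ranges with both signs were -0.02 to 0.79 for Wnt4, -0.11 to 0.14 for Fzd4 and -0.1 to 0.11 for Sfrp1 in the same comparison, -0.02 to 0.17 for Fzd4 in VCAM1-low against middle-aged, and for Dkk3 -0.4 to 0.18 in VCAM1-high and -0.54 to 0.03 in VCAM1-low against middle-aged.

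Counts of called genes moved more than the 10 genes did. VCAM1-negative against VCAM1-high (0) gave 22 with a pseudocount of 0.1, 16 under median-ratio scaling, 65 and 500 with the replicate block in 11 and 8 libraries, 9 without the libraries numbered 3, and 0 to 128 over omissions. VCAM1-high against middle-aged (70) gave 20 with no filter, 807 with the replicate block, 14 with only the groups compared, and 18 to 240 over omissions. VCAM1-negative against middle-aged (1671) gave 870 with no filter, 3656 with the replicate block, 826 without the libraries numbered 3, and 339 to 1836 over omissions. VCAM1-low against middle-aged (475) gave 104, 1827 with the block, and 1 to 825. The F test (384) gave 39 with no filter, 2025 with the block, 251 without the libraries numbered 3, and 39 to 633. VCAM1-low against VCAM1-high gave 1 with the block, and VCAM1-negative against VCAM1-low 0 to 117 over omissions. The cause was not tested. Deviations of same-numbered VCAM1-negative and middle-aged libraries correlated at -0.02, 0.03 and 0.08, which does not settle whether the numbers pair. For VCAM1-low and middle-aged the values were 0.15 and 0.03. The deviations of the 2 VCAM1-low libraries mirror each other, so these values cannot show which numbers pair. In the comparisons followed gene by gene, the replicate block changed no call on the 10 genes other than Wnt4 in VCAM1-high against middle-aged. Axin2 and Rspo3 rest on few reads, with at most 27.2 and 58.8 estimated in a library.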
